A study of Mus musculus with 20 samples.

Results

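The claudins are membrane proteins of the tight junction, and the kidney uses a different set of them in each nephron segment. The members described here are the 10 claudin genes *Cldn1*, *Cldn2*, *Cldn3*, *Cldn4*, *Cldn7*, *Cldn8*, *Cldn10*, *Cldn14*, *Cldn16* and *Cldn19*, taken by name from a table of raw read counts that holds 24411 gene symbols, 32 of which are claudins. The counts come from whole kidneys of 20 mice at P125, of which 5 were control males, 5 control females, 5 mutant males and 5 mutant females. All mice received doxycycline (DOX) at a dose of 50 mg/kg, injected intraperitoneally on P27 through P29. Mutants were *Pkd2* fl/fl; *Pax8*rtTA; TetOCre mice, in which DOX turns on Cre in the cells that express *Pax8*, so that *Pkd2* is deleted in nephron tubules and collecting ducts. Controls lacked *Pax8*rtTA or TetOCre and received the same DOX. The mice came from 3 litters, here called A, B and C. Single mice are named by sex, genotype and a number given here, so that MC4 is a male control and FM4 a female mutant.

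A claudin spans the membrane and meets the claudins of the neighboring cell with its extracellular loops, where it either seals the gap between the cells or forms a pore for chosen ions. *Cldn2* forms a pore for cations and water in the proximal tubule and the descending thin limb. *Cldn10* is made in several forms, among them an anion pore of the proximal tubule and a cation pore of the thick ascending limb. *Cldn16* and *Cldn19* together let calcium and magnesium pass in the thick ascending limb, and loss of either in patients causes a familial wasting of magnesium and calcium, while *Cldn14* opposes that path. *Cldn3*, *Cldn4*, *Cldn7* and *Cldn8* belong to the distal tubule and collecting duct, where *Cldn4* and *Cldn8* work together in the passage of chloride. *Cldn1* is a sealing claudin that is best known in the kidney from the parietal cells of Bowman's capsule. Polycystic kidney disease replaces these tubules with fluid-filled cysts lined by an epithelium whose junctions hold the fluid.

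On the GRCm38 build, GENCODE places *Cldn1* at chr16:26356642-26371841 (minus strand) and *Cldn16* at chr16:26463135-26482765 (plus strand), 91293 bases apart. *Cldn4*, a gene of 1 exon, lies at chr5:134945119-134946934 (minus strand), and *Cldn3*, also of 1 exon, lies 39279 bases away at chr5:134986214-134987472 (plus strand). *Cldn8* (chr16:88560828-88563183, minus strand) has 1 exon as well. *Cldn14* spans chr16:93919031-94008837 (minus strand), *Cldn7* chr11:69964779-69967885 (plus strand), *Cldn19* chr4:119255414-119262438 (plus strand) and *Cldn2* chrX:139800828-139811386 (plus strand). *Cldn10* spans chr14:118787908-118875489 (plus strand) and has 3 annotated transcripts, which the deposited counts join into 1 value per mouse. Only *Cldn3* and *Cldn19* share exon bases with another gene, an antisense gene in both cases, over 3.18% and 2.11% of their exon length.

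The sequences around the transcription start are shown for *Cldn1* and *Cldn4*, which rose in the mutants, and for the 2 starts of *Cldn10*, which fell. Each runs from 250 bases before to 50 bases after the start, 5′ to 3′ on the strand of the gene, from RefSeq (GRCm38.p6). Capitals mark matches, on either strand, to the letters TGANTCA (AP-1), CACCTG (the E-box bound by Snail and Zeb), AACNGGTT (Grainyhead-like) and GGGNGTG (Klf), motifs that do not overlap in the sequences shown.
*Cldn1*, chr16:26371790-26372089, minus strand: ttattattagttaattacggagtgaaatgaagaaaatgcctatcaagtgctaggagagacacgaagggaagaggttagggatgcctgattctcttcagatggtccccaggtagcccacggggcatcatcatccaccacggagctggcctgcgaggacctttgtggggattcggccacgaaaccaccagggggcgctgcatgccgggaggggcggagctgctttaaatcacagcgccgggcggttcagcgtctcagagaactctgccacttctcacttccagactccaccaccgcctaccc
*Cldn4*, chr5:134946885-134947184, minus strand: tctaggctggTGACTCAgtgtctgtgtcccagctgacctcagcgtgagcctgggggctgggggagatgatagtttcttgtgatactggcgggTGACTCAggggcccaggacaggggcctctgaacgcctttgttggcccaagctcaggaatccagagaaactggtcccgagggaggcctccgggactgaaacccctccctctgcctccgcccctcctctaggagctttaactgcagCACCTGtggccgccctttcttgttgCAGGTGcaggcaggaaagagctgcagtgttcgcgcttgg
*Cldn10*, first start, chr14:118787621-118787920, plus strand: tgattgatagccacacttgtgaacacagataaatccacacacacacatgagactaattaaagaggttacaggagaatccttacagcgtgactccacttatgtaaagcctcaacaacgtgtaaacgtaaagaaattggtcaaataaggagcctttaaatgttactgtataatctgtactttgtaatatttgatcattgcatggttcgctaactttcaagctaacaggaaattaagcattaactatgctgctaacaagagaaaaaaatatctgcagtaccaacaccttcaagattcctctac
*Cldn10*, second start, chr14:118854700-118854999, plus strand: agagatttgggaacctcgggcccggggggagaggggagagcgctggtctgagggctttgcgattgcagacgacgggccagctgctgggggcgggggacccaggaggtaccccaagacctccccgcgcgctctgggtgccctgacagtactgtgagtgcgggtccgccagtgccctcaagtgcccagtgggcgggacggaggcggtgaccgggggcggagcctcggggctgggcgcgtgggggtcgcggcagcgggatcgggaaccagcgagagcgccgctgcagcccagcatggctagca
In *Cldn4* the AP-1 letters occurred 2 times, beginning 240 and 158 bases upstream of the start, and the E-box letters occurred 2 times. The *Cldn1* window and both *Cldn10* windows held none of the 4 motifs. RefSeq windows were found for 9 of the 10 members, 14 windows in all, and *Cldn4* was the only one of these genes with an AP-1 match. Among 32851 windows of the same length over all genes, 7.81% held the AP-1 letters, 20.2% the E-box, 2.09% the Grainyhead-like and 29.2% the Klf letters. *Cldn3* held 1 E-box and 2 Klf matches, and the 2 windows of *Cldn7* held 1 Klf match each and, in the second, 2 E-box matches. The 2 windows of *Cldn19* held 1 Klf match each, and 1 window of *Cldn14* held 1 E-box match. The windows of *Cldn2* and *Cldn16* held none of the 4 motifs.

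Total counts were 11307741 to 19324073 per mouse. FM4 stood apart: counts were found for 14850 genes in this library and for 16776 to 17724 in the others, and it also had the lowest total count and the lowest kidney to body weight of the mutants, so results are given with and without it where they change. *Pkd2*, the targeted gene, was lower in mutants than controls of the same sex with no overlap, by a fitted log2 fold change of -1.32 ± 0.08 (SE) in males and -0.80 ± 0.18 in females. Of the segment markers searched, all 10 proximal tubule, 7 thick ascending limb and 9 principal cell markers were counted in each group, and 1 of 6 thin limb markers had no count. Kidney to body weight (KBW), the kidney weight as a percentage of body weight, was 0.692% ± 0.117 (SD, n = 5) in male controls, 1.68% ± 0.338 in male mutants, 0.615% ± 0.0448 in female controls and 1.18% ± 0.261 in female mutants. Levels are given in CPM, the counts of a gene relative to the TMM-scaled total of its library, and a gene was called at an adjusted p under 0.01 in edgeR's quasi-likelihood test, adjusted by the Benjamini-Hochberg method over all genes tested. The samples of a group were separate mice, and in whole kidney fewer cells of a type and less RNA per cell cannot be told apart.

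Per kilobase of exon, the only scale here on which genes can be set beside each other, *Cldn2* was the most abundant claudin in every group. Its level was 222 CPM per kb ± 16.7 (SD, n = 5) in male controls and 187 ± 11.3 in female controls. *Cldn10* followed with 90.3 ± 7.11 and 85.5 ± 7.41, and *Cldn8* with 49.2 ± 4.28 and 71.8 ± 3.91. Of the summed level per kb of the 10 members, *Cldn2* made up 53.0% ± 2.68 in male controls and 43.2% ± 1.65 in female controls. *Cldn19*, *Cldn4*, *Cldn16*, *Cldn7* and *Cldn3* lay between 8.07 and 12.1 CPM per kb in male controls, and neighbors in that order overlapped in their ranges over the 5 mice. *Cldn1* was lower, at 4.67 ± 0.464 CPM per kb in male controls and 7.83 ± 0.978 in female controls.

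*Cldn14* was at the edge of detection. It had no count in 9 of 20 mice, 8 of them male, which allows a level of up to 0.155 to 0.265 CPM in those libraries (3 counts, counting error only). Male controls had 0, 1, 0, 0 and 0 counts, and male mutants 12, 0, 0, 0 and 0, with all 12 in MM1. Female controls had 3, 2, 2, 2 and 5 counts, and female mutants 7, 4, 7, 0 and 2. Control males and control females did not overlap, with 1 count against 14 over the 5 mice of each, and their mean levels were 0.0127 and 0.185 CPM (two-sided exact permutation test, p = 0.00794, the smallest that 252 relabelings allow, and 0.0317 adjusted over the 4 comparisons of *Cldn14*, a test chosen after the counts were seen). Of the genes that passed the filter, 23.9% did not overlap between these groups. The limit in males without a count lay above the levels of FC2, FC3 and FC4 (0.109, 0.118 and 0.119 CPM), so for single mice the separation lies within counting error. Between mutants and controls the exact permutation p was 1 in males and 0.722 in females, and between mutant males and females it was 0.603, so no such difference was detectable at this depth. *Cldn14* did not pass the filter on low counts in any comparison, while the remaining 9 members passed it in each.

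The first question was which claudins differed between mutant and control kidneys. Over all 10 mutants and 10 controls, *Cldn1* and *Cldn4* rose and *Cldn8* and *Cldn10* fell, so that 4 of the 9 tested members were called (15.9% of all 14191 genes tested were called, 10.0% as higher and 5.86% as lower). The fitted log2 fold changes were 1.18 ± 0.15 (SE) for *Cldn1* (adjusted p = 2.31e-05), 0.88 ± 0.22 for *Cldn4* (adjusted p = 0.0052), -0.56 ± 0.06 for *Cldn8* (adjusted p = 7.75e-06) and -0.39 ± 0.09 for *Cldn10* (adjusted p = 0.00309), all by edgeR. The other 5 tested members were not called. Of the 9 members, 5 had positive and 4 negative log2 fold changes, with a median of 0.28 beside -0.01 over all genes tested. In males 3 members were called, *Cldn1*, *Cldn8* and *Cldn10* (8.46% of all genes), and in females none was (0.637% of all genes). In females 4 of the 9 had an unadjusted p under 0.05 (20.6% of all genes), and DESeq2's Wald test called 2 members and 928 of 14439 genes. The test of the difference between the sexes called no member by edgeR or DESeq2 (0.00% of all genes by edgeR), with an adjusted p of 1 for each of the 9 in edgeR and an unadjusted p under 0.05 for 0 of them.

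**Figure D1:**
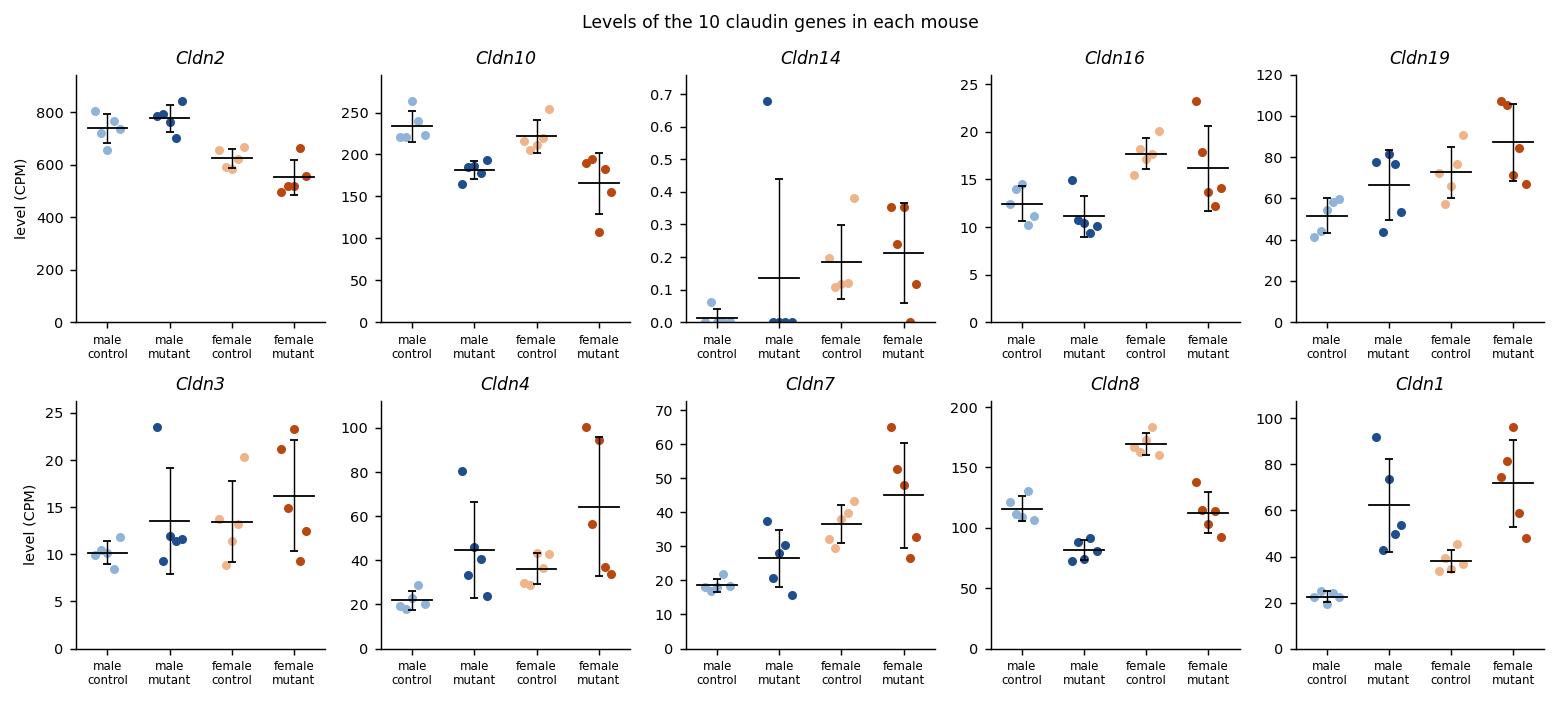
Level of each of the 10 claudin genes in CPM (vertical axis, from 0, with its own scale for each gene) in the 5 mice of each group; points are mice, lines are group means and bars are SD. *Cldn1* lies higher and *Cldn8* and *Cldn10* lie lower in mutants than in controls of the same sex with no overlap, and *Cldn14* is near 0 in every group.

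*Cldn1*, the sealing claudin of the parietal epithelium, showed the largest rise among the members. Its level in male controls was 22.3, 25.0, 19.2, 24.2 and 22.4 CPM. Male mutants had 92.1, 42.7, 73.6, 49.9 and 53.6 CPM, all above every male control. Female controls had 33.5, 39.3, 34.7, 45.4 and 36.6 CPM, and female mutants had 74.4, 81.7, 96.1, 59.1 and 48.02 CPM, again without overlap. The lowest female mutant, FM5, was only slightly above the highest female control, FC4. The fitted rise was 2.75-fold in males (log2 fold change 1.46 ± 0.20, adjusted p = 0.00102 by edgeR) and 1.91-fold in females (0.93 ± 0.17, adjusted p = 0.0138). In males the call held with each mouse left out, with log2 fold changes of 1.15 to 1.62, and in females it appeared without FM4 (log2 fold change 1.02, adjusted p = 0.00278). The rise in males exceeded that in females by 0.56 ± 0.27 on the log2 scale (unadjusted p = 0.0553, adjusted p = 1). It was positive in each of the 6 groups of sex and litter, by 0.39 to 1.503 in log2 CPM.

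Over both sexes 4 of the 6 parietal epithelium markers rose (*Ncam1*, *Akap12*, *Pax8* and *Cp*), 1 fell (*Wt1*) and *Bmp6* was not called, beside 10.0% of all genes called as higher and 5.86% as lower. *Pax8* is also expressed in nephron tubules and collecting ducts, so this list does not mark parietal cells alone. The summed level of the 6 markers was 189 to 227 CPM in male controls, 264 to 533 in male mutants, 292 to 358 in female controls and 377 to 659 in female mutants. Of the 12 tubule injury markers, 11 rose, among them *Havcr1* by 6.33 ± 0.57 and *Vcam1* by 2.54 ± 0.29 on the log2 scale. The part of these cells in the level of *Cldn1* was not tested.

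*Cldn4*, a distal claudin of the chloride path, rose over both sexes but with a wide spread among mutants. Male controls had 19.2, 17.7, 23.1, 28.7 and 20.3 CPM. Male mutants had 80.7, 33.2, 46.0, 40.5 and 23.7 CPM, so that MM1 was high and MM5 lay within the range of the controls. Female controls had 29.5, 28.6, 43.3, 36.5 and 42.9 CPM. Female mutants had 100.3, 56.3, 94.4, 37.2 and 33.6 CPM, with FM4 and FM5 within the range of the controls. In neither sex alone was *Cldn4* called: the log2 fold change was 0.99 ± 0.26 in males (adjusted p = 0.0194 by edgeR) and 0.80 ± 0.31 in females (adjusted p = 0.176). The call over both sexes was lost in 8 of the 20 fits that left out 1 mouse (MC1, MC2, MC3, MM1, FC1, FC2, FM1 or FM3), with adjusted p-values of up to 0.0177, while the log2 fold change stayed between 0.68 and 1.02. Within litters the difference was positive in 5 of the 6 groups of sex and litter and ranged from -0.35 to 1.76 in log2 CPM.

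The other barrier claudins of the distal nephron had smaller differences. *Cldn7* had a log2 fold change of 0.36 ± 0.15 over both sexes (adjusted p = 0.0863 by edgeR), from 18.6 CPM ± 1.90 (SD, n = 5) in male controls to 26.5 ± 8.39 in male mutants and from 36.6 ± 5.69 to 45.0 ± 15.5 in females. *Cldn3* had 0.39 ± 0.19 (adjusted p = 0.129), with 10.2 CPM ± 1.21 in male controls, 13.5 ± 5.65 in male mutants, 13.5 ± 4.25 in female controls and 16.2 ± 5.88 in female mutants. The highest male mutant for both was MM1, with 37.3 CPM of *Cldn7* and 23.5 CPM of *Cldn3*. Without MM1 the log2 fold changes in males were 0.17 and 0.08. The groups overlapped for both genes in both sexes.

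*Cldn8*, the partner of *Cldn4* in the collecting duct, fell. Male controls had 121.6, 111.7, 109.1, 130.7 and 106.3 CPM, and male mutants 72.7, 88.0, 74.0, 91.6 and 80.6 CPM. Female controls had 167, 163, 173, 183 and 160.0 CPM, and female mutants 138, 115, 103, 114 and 92.2 CPM. In both sexes every mutant lay below every control. The log2 fold change was -0.53 ± 0.08 in males (adjusted p = 0.0019 by edgeR), or 1.45-fold lower, and -0.58 ± 0.10 in females (adjusted p = 0.0119), or 1.49-fold lower. Without FM4 the difference in females was called (adjusted p = 0.00565), and without MC4 that in males was not (-0.48, adjusted p = 0.0193). It was negative in all 6 groups of sex and litter, by -0.79 to -0.28 in log2 CPM.

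*Cldn10*, the second most abundant member per kb, fell too. Male controls had 221, 221, 264, 240 and 223 CPM, and male mutants 165, 185, 186, 178 and 194 CPM. Female controls had 216, 206, 211, 219.9 and 254 CPM, and female mutants 189.7, 195, 107, 183 and 155 CPM, with the lowest level in FM3. No mutant overlapped the controls of its sex. In males the log2 fold change was -0.38 ± 0.07 (adjusted p = 0.00486 by edgeR), a call that was kept in 6 of 10 fits with 1 mouse left out and lost without MC1, MC4, MM3 or MM4, with adjusted p-values of up to 0.0354. In females it was -0.40 ± 0.15 (adjusted p = 0.158). Which of the *Cldn10* forms was lower cannot be told from gene-level counts.

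The number of members without overlap between mutants and controls was 3 of 9 in males, where 15.3% of all genes did not overlap, and 3 of 9 in females, where 7.06% did not. They were *Cldn1*, *Cldn8* and *Cldn10* in both sexes. Because FM4 lowered the number of calls in females, the count was repeated without it, and 2 members, *Cldn1* and *Cldn8*, were then called (5.93% of all genes).

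*Cldn2* and the pair of the thick ascending limb were not called. *Cldn2* had 737 CPM ± 55.6 (SD, n = 5) in male controls, 776 ± 51.6 in male mutants, 623 ± 37.5 in female controls and 551 ± 67.1 in female mutants, with a log2 fold change of -0.05 ± 0.07 over both sexes (adjusted p = 0.67 by edgeR). *Cldn16* had -0.12 ± 0.10 (adjusted p = 0.442), with 12.5 CPM ± 1.82 in male controls, 11.1 ± 2.19 in male mutants, 17.7 ± 1.66 in female controls and 16.2 ± 4.46 in female mutants. *Cldn19* had 0.28 ± 0.12 (adjusted p = 0.0942), with 51.6 CPM ± 8.44, 66.6 ± 16.9, 72.7 ± 12.4 and 87.2 ± 18.6 in the same order. These values and their errors bound the differences but do not show that the levels were equal.

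**Figure D2:**
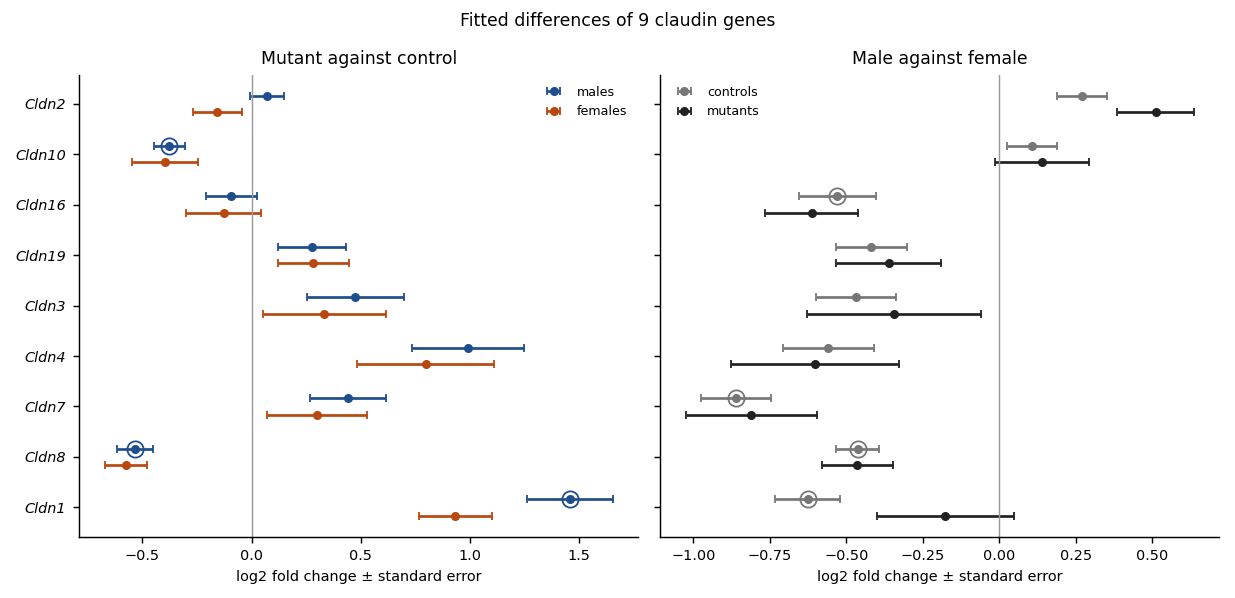
Fitted log2 fold changes with standard errors (horizontal axis) of the 9 tested claudins; left, mutants against controls in males and in females, right, males against females in controls and in mutants; rings mark an adjusted p under 0.01. On the left the 2 sexes lie on the same side of 0 for each gene except *Cldn2*, and on the right 7 of the 9 genes lie below 0, meaning higher in females.

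The second question was whether the claudins moved with the other genes of their segment. Of the 7 thick ascending limb markers, 6 fell over both sexes (5.86% of all genes), among them *Umod*, *Slc12a1*, *Kcnj1*, *Bsnd* and *Egf*, with a median log2 fold change of -0.69 over the 7, while neither *Cldn16* nor *Cldn19* was called. Set beside the mean log2 CPM of these 7 markers in the same mouse, *Cldn19* was higher in mutants by 0.98 on the log2 scale, by 0.99 in males and 0.97 in females, and no mutant overlapped the controls of its sex (two-sided exact permutation test of genotype within sex, which does not hold the litter fixed, p = 3.15e-05, the smallest that 63504 relabelings allow). The ratio of *Cldn16* to the same markers was higher by 0.52 (exact permutation test, p = 0.00309), with overlap in both sexes, and that of *Cldn10* by 0.28 (exact permutation test, p = 0.000504). Thus *Cldn10* fell by less than the thick limb markers did. Its counts join forms of the proximal tubule and the thick limb, so the fall of the thick limb form cannot be told from this ratio. In all 11 such ratios were computed, chosen after the values were known, and the adjusted p-values over the 11 were 0.000173 for *Cldn19*, 0.00485 for *Cldn16* and 0.00111 for *Cldn10*, in an exact permutation test. With genotype relabeled only within sex and litter, which leaves 4800 relabelings, the exact permutation p-values were 0.000208 for *Cldn19*, 0.00792 for *Cldn16* and 0.00187 for *Cldn10*. Adjusted over the 11 ratios they were 0.000573, 0.0124 and 0.00344, so that of *Cldn16* was no longer under 0.01. With each mouse left out the highest exact permutation p-values of these 3 ratios were 9.45e-05, 0.00762 and 0.00126.

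In the collecting duct the principal cell markers moved little. Of these 9 principal cell markers, which include *Aqp2*, the water channel of these cells, 2 fell (*Aqp3* and *Scnn1g*) and none rose, beside 5.86% and 10.0% of all genes, with a median log2 fold change of -0.07. The ratio of *Cldn8* to their mean was lower in mutants by 0.49 on the log2 scale (exact permutation test, p = 9.45e-05, adjusted over the 11 ratios 0.000346), while the ratio of *Cldn4* was higher by 0.89 (exact permutation test, p = 0.000756, adjusted 0.00139). *Cldn7* and *Cldn3* had ratios higher by 0.41 and 0.36 (exact permutation test, p = 0.0191 and 0.0997, adjusted 0.0262 and 0.11). Relabeled within sex and litter, the exact permutation p was 0.000208 for *Cldn8* and 0.000833 for *Cldn4*. The chloride-path partners *Cldn4* and *Cldn8* thus differed in opposite directions from the same markers. Distal convoluted tubule markers, which lie next to this segment, fell in 6 of 6 cases and intercalated cell markers in 7 of 8. Their median log2 fold changes were -1.04 and -0.56, beside -0.56 for *Cldn8*. No ratio of a distal claudin to these markers was computed. Markers of urothelium, which also makes distal claudins, summed to 7.39 to 49.8 CPM in male controls, 18.9 to 95.5 in male mutants, 9.71 to 74.8 in female controls and 28.4 to 122 in female mutants, with all 8 counted in each group and 1 of 8 called (*Upk3b*, higher), and their part in the levels of *Cldn3*, *Cldn4* and *Cldn7* was not tested.

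In the proximal tubule 1 of 10 markers was called (*Slc13a3*, lower), near the 5.86% of all genes called as lower, with a median log2 fold change of -0.19. The ratio of *Cldn2* to these markers was higher by 0.18 (exact permutation test, p = 0.0324, adjusted over the 11 ratios 0.0396) and that of *Cldn10* lower by 0.17 (exact permutation test, p = 0.136, adjusted 0.136). *Cldn2* also belongs to the descending thin limb. Of the 5 thin limb markers tested over both sexes 2 rose and 1 fell, beside 10.0% and 5.86% of all genes, with a median log2 fold change of 0.55. The ratio of *Cldn2* to them was not computed. *Cldn1* relative to the parietal epithelium markers, of which *Pax8* is not confined to those cells, was higher by 0.58 (exact permutation test, p = 0.000157, adjusted 0.000433). Relative to the proximal tubule markers it was higher by 1.38 (exact permutation test, p = 3.15e-05, adjusted 0.000173).

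**Figure D3:**
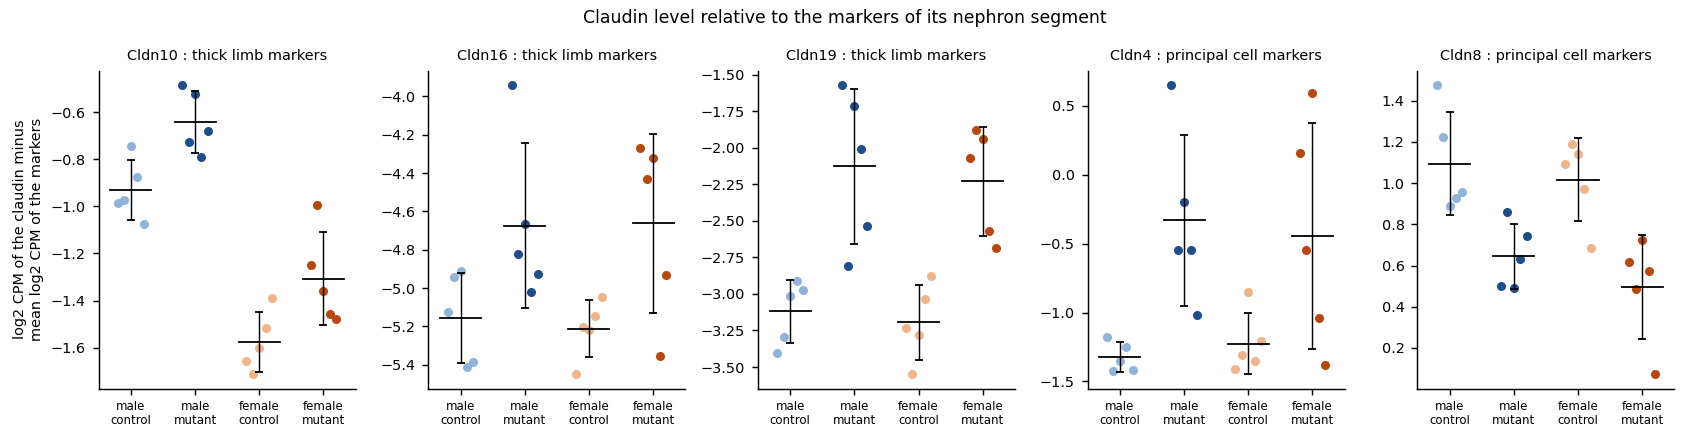
Log2 CPM of a claudin minus the mean log2 CPM of the markers of its segment (vertical axis) in each mouse of the 4 groups; points are mice, lines are means and bars are SD. *Cldn19* lies higher in every mutant than in every control of its sex relative to the thick ascending limb markers, and *Cldn8* lies lower on average relative to the principal cell markers, by 0.45 in males and 0.52 in females.

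The third question was the difference between the sexes. In control kidneys 4 members were called, all lower in males (17.8% of all genes were called, and 9.02% as lower): *Cldn7* with a log2 fold change, male against female, of -0.86 ± 0.11 (adjusted p = 0.000161 by edgeR), *Cldn1* with -0.63 ± 0.11 (adjusted p = 0.00089), *Cldn16* with -0.53 ± 0.13 (adjusted p = 0.00735) and *Cldn8* with -0.46 ± 0.07 (adjusted p = 0.000392). *Cldn7* was thus 1.82-fold and *Cldn8* 1.38-fold higher in females. The groups did not overlap for these 4 genes (23.9% of all genes did not overlap). *Cldn3*, *Cldn4* and *Cldn19* had log2 fold changes of -0.47, -0.56 and -0.42 with adjusted p-values of 0.0172, 0.0135 and 0.0181 by edgeR. *Cldn2* was the other way, at 0.27 ± 0.08 (adjusted p = 0.0238), and *Cldn10* had 0.11 ± 0.08 (adjusted p = 0.35). Without MC4 the calls for *Cldn1* (adjusted p = 0.0131) and *Cldn16* (adjusted p = 0.0853) were lost, leaving 2, and *Cldn16* was called in only 3 of 10 fits with 1 mouse left out. DESeq2's Wald test called 7 members and 3025 of 14123 genes, and of these members *Cldn2* was higher in males (0.28, adjusted p = 0.0047).

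Podocyte, endothelial and thick limb markers differed between control males and females as well. Of all genes tested, 9.02% were called as lower in males. All 6 podocyte markers had negative log2 fold changes, 5 of them called. Of the endothelial markers 5 of 6 were called as lower in males, and of the 7 thick ascending limb markers 7 were. Of the 9 principal cell markers 5 were lower in males, as were 2 of 6 distal convoluted tubule, 2 of 8 intercalated cell, 1 of 5 thin limb and 2 of 6 parietal epithelium markers, the last with a median log2 fold change of -0.44. Of the 10 proximal tubule markers 3 were called as higher in males (1236 of all 14123 genes were), with a median log2 fold change of -0.02 over the 10. The share of these cell types in the kidney was not measured, so their part in the sex difference of the claudins was not tested.

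In mutant kidneys no member was called between the sexes (5.42% of all genes), 4 had an unadjusted p under 0.05, and *Cldn2* and *Cldn8* did not overlap (13.3% of all genes). *Cldn2* was higher in males by 0.51 ± 0.13 on the log2 scale (adjusted p = 0.0218 by edgeR), from 496 to 664 CPM in female mutants against 699.5 to 842 in male mutants. *Cldn8* had -0.46 ± 0.12 (adjusted p = 0.0233), *Cldn7* -0.81 ± 0.21 (adjusted p = 0.0302) and *Cldn16* -0.61 ± 0.15 (adjusted p = 0.0224). *Cldn1*, which differed between the sexes in controls, had -0.18 ± 0.22 in mutants (adjusted p = 0.628). Without FM4 the members *Cldn2*, *Cldn7* and *Cldn16* were called (9.12% of all genes). With all mice DESeq2's Wald test called 4 members and 1959 of 14416 genes.

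The last question was whether claudin levels followed the size of the kidney among the 10 mutants. With sex as a covariate, no member was called (0.00% of all genes), although 22.0% of all genes had an unadjusted p under 0.05. The 4 steepest slopes were 1.75 ± 0.40 (SE) log2 units per percentage point of KBW for *Cldn4* (unadjusted p = 0.000765, adjusted p = 0.044 by edgeR), 1.61 ± 0.25 for *Cldn3* (unadjusted p = 2.78e-05, adjusted p = 0.0271), 1.23 ± 0.22 for *Cldn1* (unadjusted p = 9.19e-05, adjusted p = 0.0271) and 1.13 ± 0.36 for *Cldn7* (unadjusted p = 0.00749, adjusted p = 0.0984). *Cldn16* had 0.64 ± 0.29 and *Cldn19* 0.59 ± 0.31, with adjusted p-values of 0.228 and 0.277 by edgeR. *Cldn2*, *Cldn8* and *Cldn10* had slopes of -0.22 ± 0.19, -0.15 ± 0.21 and -0.29 ± 0.25, none with an unadjusted p under 0.05. DESeq2's Wald test, which called 579 of 14865 genes for this slope, called *Cldn1*, *Cldn3* and *Cldn4*. Without FM4 their slopes in edgeR were 1.39, 1.52 and 1.72 with adjusted p-values of 0.119, 0.119 and 0.147, and without MM1, the mouse with the largest kidneys, they were 1.19, 1.46 and 1.62 with adjusted p-values of 0.205, 0.205 and 0.218.

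Across the 10 mutants without a sex term, Pearson's r between log2 CPM and KBW reached an unadjusted p under 0.05 for *Cldn8* alone (r = -0.644, permutation p = 0.0458, adjusted p = 0.319, and Spearman's rho = -0.673, permutation p = 0.0395, adjusted p = 0.368). Without MM1 and FM4, the mice farthest from the median KBW, r was -0.442. This pooled relation joins the sexes: male mutants had on average larger KBW and lower *Cldn8*. With sex in the fit the slope was -0.15 ± 0.21 (SE), too imprecise to tell whether *Cldn8* follows KBW within a sex. For *Cldn3* r was 0.477 (permutation p = 0.164, adjusted p = 0.508) with rho = 0.418 (permutation p = 0.231, adjusted p = 0.623), and without MM1 and FM4 it was -0.03, so the pooled relation rests on those 2 mice. With the mean of each sex removed, r over the same 10 mutants was 0.930 for *Cldn3* (exact permutation of KBW within sex, p = 6.94e-05) and 0.831 without MM1 and FM4. *Cldn1* had r = 0.445 (permutation p = 0.198, adjusted p = 0.543) and rho = 0.406 (permutation p = 0.248, adjusted p = 0.636), with r = 0.252 without those mice. With the mean of each sex removed it had r = 0.899 (exact permutation within sex, p = 0.00181) and 0.872 without those mice. *Cldn4*, *Cldn7* and *Cldn8* had r = 0.780, 0.693 and -0.216 on that scale (exact permutation within sex, p = 0.0173, 0.0397 and 0.547) and 0.568, 0.392 and 0.0353 without those mice. These p-values are not adjusted, and the slopes with a sex term give the values adjusted over all genes. Pooled correlations were computed for 14865 genes, and none had an adjusted p under 0.01.

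**Figure D4:**
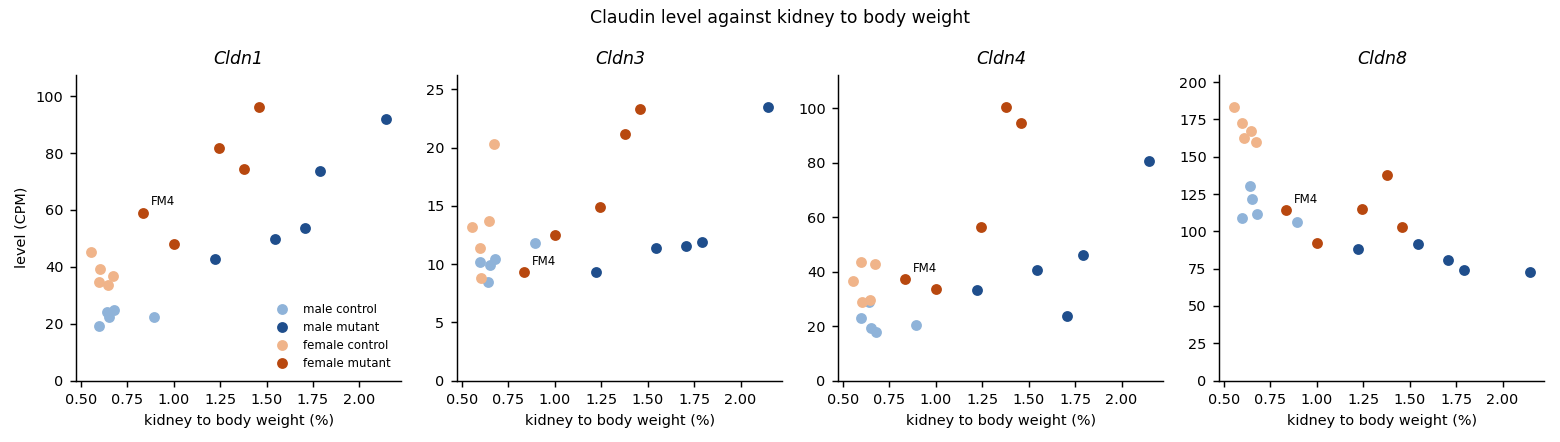
Level of *Cldn1*, *Cldn3*, *Cldn4* and *Cldn8* in CPM (vertical axis, from 0) against KBW in percent (horizontal axis) in the 20 mice, colored by group, with FM4 named. Within each sex *Cldn3* rises in the order of KBW over the 5 mutants, and male mutants lie below female mutants for *Cldn8*.

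The partners of the claudins in the junction are scaffold, adhesion and tricellular proteins. Of 32 partner genes 32 passed the filter in the comparison over both sexes, 5 rose, 2 fell and 25 were not called, beside 10.0% and 5.86% of all genes, with a median log2 fold change of 0.10. The largest fall was that of *Ildr1* (angulin-2), a protein of the tricellular junction, with a log2 fold change of -0.65 ± 0.06 (adjusted p = 2.86e-06 by edgeR). Within males it was called (-0.64, adjusted p = 0.00119), and it was also called within females (-0.64, adjusted p = 0.00738), the sex without a called member. Its level was 32.4 CPM ± 1.57 (SD, n = 5) in male controls, 21.3 ± 2.90 in male mutants, 49.3 ± 5.10 in female controls and 31.1 ± 3.43 in female mutants. *Cxadr*, the junctional receptor for coxsackie virus and adenovirus, rose by 0.57 ± 0.09, *Amotl2*, a scaffold of the Hippo pathway, by 0.57 ± 0.08, the nectin *Pvrl2* by 0.38 ± 0.10. The polarity gene *Pard6b*, named after its value was seen, rose by 0.23 ± 0.05. Among scaffolds of the zonula occludens, *Tjp3* fell, with -0.27 ± 0.07 (adjusted p = 0.00842 by edgeR), and *Tjp1* had 0.22 ± 0.10 (adjusted p = 0.111 by edgeR). *Ocln*, which encodes occludin, had -0.12 ± 0.05 (adjusted p = 0.0679). *Tjp1* and *Ocln* were also named after their values were seen.

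**Figure D5:**
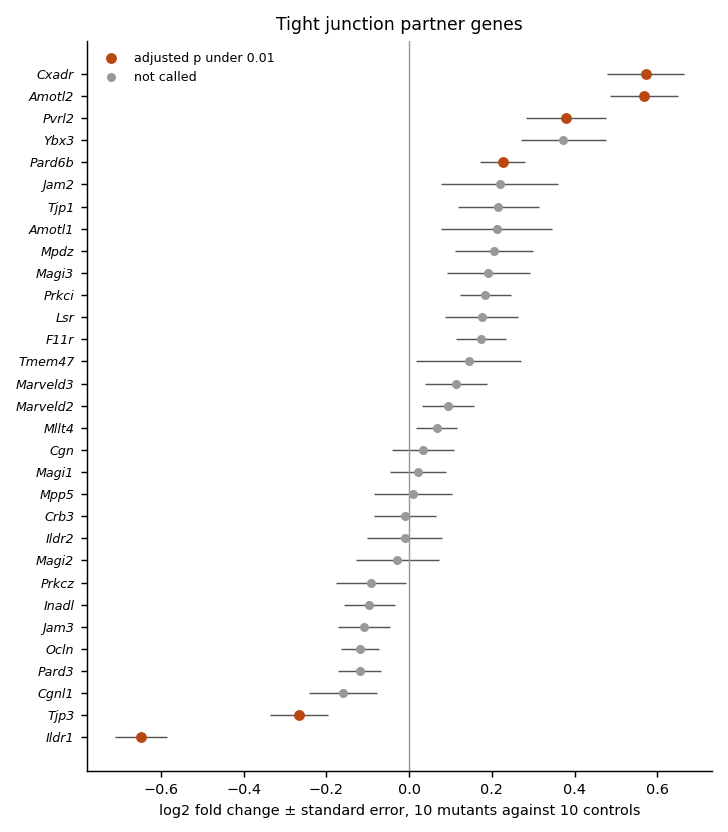
Log2 fold change with standard error (horizontal axis) of tight junction partner genes in 10 mutants against 10 controls, sorted by size; colored points had an adjusted p under 0.01. *Cxadr* and *Amotl2* lie at the upper end with 0.57 each and *Ildr1* at the lower end with -0.65.

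Of 21 transcription factors that are known to bind claudin promoters, 20 were tested, 3 rose and 3 fell, beside 10.0% and 5.86% of all genes. Their median log2 fold change was -0.05. *Klf5* rose by 1.13 ± 0.28, *Elf3*, an epithelial Ets factor, by 0.93 ± 0.18 and *Klf4* by 0.64 ± 0.12. The genes that fell were *Esr1*, the estrogen receptor (-0.54 ± 0.10), *Tfcp2l1*, a collecting duct factor of the Grainyhead family (-0.36 ± 0.09), and *Vdr*, the vitamin D receptor (-0.33 ± 0.07). These are RNA levels. By Western blot the paper reports more ESR1 protein in P125 mutants of both sexes than in controls. A list of 9 calcium genes held regulators of *Cldn14* and also carriers of calcium through the cell. Of these 6 fell and none rose, beside 5.86% and 10.0% of all genes, with a median of -0.48: *Calb1* (-1.14 ± 0.17), *Slc8a1* (-0.93 ± 0.14), *S100g* (-0.91 ± 0.17), the calcium-sensing receptor *Casr* (-0.80 ± 0.18), *Fxyd2* (-0.48 ± 0.11) and *Vdr*. *Calb1*, *Slc8a1* and *S100g* carry calcium through the cells of the distal tubule and not between them, and *Calb1* and *Slc8a1* are also among the 6 distal convoluted tubule markers that fell. Outside the call, and named after their values were seen, the channel *Trpv6* had 0.81 ± 0.23 (adjusted p = 0.0135) and the parathyroid hormone receptor *Pth1r* -0.36 ± 0.10 (adjusted p = 0.0124 by edgeR).

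Among the 20 mice, the genes whose log2 CPM was most like that of a member are a description of shared pattern over mice that also share litter, sex and genotype. For *Cldn8* the closest of 14820 genes was *Ildr1* (Pearson's r = 0.948), then *Ptgfr* and *Sfrp1*. *Cldn1* was closest to *Golm1* (r = 0.959), *Cfi* and *H2-DMb1*, and *Cldn4* to *Pea15a* (r = 0.964) and *Bcam*. For *Cldn7* they were *Dlgap4* (r = 0.955), *Fam129b* and *Ptk7*, for *Cldn3* *Cd151* (r = 0.886), *Tagln2* and *Sh3bgrl3*, and for *Cldn2* *Mlec* (r = 0.942), *Exoc6* and *March8*. *Cldn10* was closest to *Prdx3* (r = 0.917), *Pnkd* and *Mkks*, *Cldn16* to *Pbxip1* (r = 0.899), *Cd82* and *Sdc4*, and *Cldn19* to *Atp1b3* (r = 0.887), *Pcolce* and *Phc2*. The correlations ranged from 0.862 to 0.964, and without FM4 from 0.855 to 0.969. Among the members themselves, the deviations from the group means were most alike for *Cldn4* and *Cldn7* (r = 0.895, 0.890 without FM4). Next were *Cldn3* and *Cldn4* (0.731, 0.696 without FM4) and *Cldn3* and *Cldn7* (0.698, 0.626 without FM4). *Cldn1* and *Cldn4* had 0.693 (0.679 without FM4), and *Cldn7* and *Cldn19* 0.673 (0.751 without FM4). Of the chromosome neighbors, *Cldn3* and *Cldn4* had the 0.731 above, while *Cldn1* and *Cldn16* had 0.377 (0.335 without FM4).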

How the data were processed

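RNA was sequenced from whole kidneys of 20 mice, and the deposited table holds raw read counts per gene that the authors made from the reads. The submitters' processing notes name fastp 0.23.2, STAR 2.7.10b, R 4.3.0, DESeq2 and the mm10 build; the counting tool, annotation and strand setting are not given in the sources used here. Counts were used as deposited (11307741 to 19324073 per mouse). They were filtered with filterByExpr, scaled by TMM and tested with edgeR 4.0.16 (quasi-likelihood) in R 4.3.3, adjusting for litter within 1 sex or between the sexes, for the 6 combinations of sex and litter over all mice, and for sex in the slope on KBW. A call is a Benjamini-Hochberg adjusted p under 0.01 over all genes tested. The standard error is the absolute log2 fold change divided by the square root of F, and log2 CPM used a prior count of 2. Correlations used 100000 permutations. KBW is 100 times the labelled kidney weight over body weight, read as the weight of 1 kidney.

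The members, gene lists and tests were chosen with earlier results of these data known, and the marker ratios, the tests of *Cldn14* and the correlations within sex after the fits were seen. Named genes were the members, the other claudins with at least 10 counts in total, up to 6 called genes with the largest change in each of 3 lists (junction partners, promoter-binding factors, calcium control), the 3 genes most correlated with each member, segment markers and *Pkd2*. Alternatives were DESeq2 1.42.0 (Wald test), DESeq2 size factors, no filter, other covariates, all 20 mice in 1 fit and each mouse left out. The procedure was tested on simulated data. Coordinates are from GENCODE M21. A few genes that these rules would name are not reported here.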

Additional observations from a re-analysis of the deposited data

Results flagged for a closer look

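Each of the 9 tested members was examined in each of the 4 groups, 36 sets of 5 mice in all, for a mouse that stood far from the other 4 by Dixon's criterion, which chance alone meets in about 1 of 20 sets. A total of 3 sets met it. *Cldn3* was 23.5 CPM in MM1, while the other male mutants had 9.30 to 11.9 CPM. *Cldn16* was 14.9 CPM in the same mouse and 9.38 to 10.7 CPM in the other male mutants. MM1 had the largest KBW of the mice, 2.15%. *Cldn7* was 21.9 CPM in the male control MC4 and 17.0 to 18.3 CPM in the other male controls.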

How the results depend on the processing

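Of 1446 values recomputed for the members under an alternative, 1336 kept their direction and their side of the threshold, 23 lost a call, 39 gained one and 48 changed sign. The number of members called with 1 mouse left out was 1 to 4 in males (1 without MC4), 0 to 2 in females (2 without FM4), 3 to 4 over both sexes, 2 to 6 between control males and females (2 without MC4), 0 to 3 between mutant males and females (3 without FM4), and 0 for the difference between the sexes and for the slope on KBW. The number of all genes called moved as well. In males it was 187 of 14161 without MC4 to 1863 of 14133 without MM2. In females it was 3 of 14592 without FC2 to 866 of 14595 without FM4. Over both sexes it was 1656 to 2994, between control sexes 1223 to 2659 and between mutant sexes 246 to 1330. For the difference between the sexes it was 0 to 3, and for the slope 0 to 47. In females 2 members were also called by DESeq2's Wald test (928 of 14439 genes), with no filter (230 of 19367) and with all 20 mice in 1 fit (856 of 14820). DESeq2 called 7 members between control sexes, 4 between mutant sexes and 3 for the slope (3025 of 14123, 1959 of 14416 and 579 of 14865 genes). All 20 mice in 1 fit gave 3 members between mutant sexes (2353 of 14820 genes). The cause was not tested.

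All 48 sign changes fell on values that were not called. For the difference between the sexes, *Cldn16* was -0.0392 with no litter term, and *Cldn19* was -0.00241 with DESeq2 size factors and -0.00246 with DESeq2. With 1 mouse left out it ranged from -0.27 to 0.43 for *Cldn3*, -0.28 to 0.48 for *Cldn4*, -0.15 to 0.36 for *Cldn7*, -0.0227 to 0.15 for *Cldn8*, -0.0630 to 0.14 for *Cldn10*, -0.0924 to 0.25 for *Cldn16* and -0.24 to 0.15 for *Cldn19*. With no sex term the slope was 0.34 for *Cldn2*, -0.0694 for *Cldn7*, -0.13 for *Cldn16* and -0.0629 for *Cldn19*. The correlation with KBW without MM1 and FM4 was -0.0306 for *Cldn3*, -0.0533 for *Cldn4*, 0.14 for *Cldn10* and 0.0214 for *Cldn19*, Spearman's rho was 0.0182 for *Cldn7* and 0.0424 for *Cldn10*, and r with 1 mouse left out ranged from -0.17 to 0.13 for *Cldn7*, -0.11 to 0.0568 for *Cldn10* and -0.22 to 0.0806 for *Cldn19*. No correlation was called in any setting.

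No paired analysis was possible because the labels give no replicate numbers that the groups share. The litters that they share entered the fits as a covariate. The marker ratios were also relabeled within sex and litter, a step added after the data were seen. Of the 11 ratios only that of *Cldn16* to the thick ascending limb markers then crossed an adjusted p of 0.01 (exact permutation test, from 0.00485 to 0.0124). Counts per gene do not separate the forms of *Cldn10*.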

Other observations

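Besides the 10 members, 24 other claudin or claudin-domain genes were in the table, of which 7 had no count, 15 had at least 10 counts in total and 6 were tested over both sexes. *Cldn6*, a claudin of embryonic epithelia, rose over both sexes by a log2 fold change of 0.99 ± 0.22 (adjusted p = 0.00283 by edgeR), on at most 75 counts per mouse, and the call held in 18 of 20 fits with 1 mouse left out and was lost without MC4 (adjusted p = 0.0104) or MM1 (adjusted p = 0.0119). *Cldn18* had 2.32 CPM ± 0.607 (SD, n = 5) in male controls and 1.88 ± 0.360 in male mutants, on 19 to 50 counts per mouse, and 1 to 7 counts in each female. It passed the filter through the males, so the values are given as a description. *Cldn15* was lower in male than female controls by edgeR (log2 fold change -0.51 ± 0.13, adjusted p = 0.00905), a call that held in 2 of 10 fits with 1 mouse left out, with adjusted p-values of up to 0.0592. *Cldn5*, *Cldn12* and *Cldnd1* were not called over both sexes, with log2 fold changes of -0.07, 0.04 and 0.03. The single exon of *Cldn22* lies wholly within exons of *Wwc2* on the other strand, so its 208 counts cannot be told apart from that gene without strand. *Cldn11* had 263 counts in all, 115 of them in FC3. *Cldn9*, *Cldn17*, *Cldn20*, *Cldn23*, *Cldn34b2*, *Cldn34c1* and *Cldnd2* had 12 to 255 counts in total and did not pass the filter over both sexes.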
